A study of Mus musculus with 4 samples.

Results

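Muscle stem cells marked by *Pax7* made up 693 of the 25479 cells (2.72%) kept from 4 single-cell RNA-seq libraries of mouse fracture callus. They were chosen by raw counts of unique molecular identifiers (UMIs, each standing for 1 captured transcript). A cell was taken if it had at least 1 *Pax7* UMI, at least 1 UMI of *Cdh15*, *Fgfr4* and *Chrdl2* together, at most 1 *Myog* UMI and no *Ptprc* UMI. All cells had to hold 4000 to 50000 UMIs, 2000 to 7000 genes and at most 8% mitochondrial UMIs. The 90 cells with at least 2 *Mki67* UMIs were called cycling and are described apart from the other 603. Because measured counts chose these cells, the levels of the genes in the rule, and of every gene that sets the cells apart from the rest of the callus, are descriptions and support nothing.

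Muscle stem cells, also called satellite cells, lie between a muscle fibre and its basement membrane and rest outside the cell cycle until the muscle is injured. On injury they enter the cycle, make the myogenic factors MYF5 and MYOD1, and then either turn on *Myog* and fuse into fibres or return to rest. Notch signals, the calcitonin receptor and contact with the basement membrane are known to hold them at rest, whereas IL-6 family cytokines acting through STAT3 and growth factors act on their division and differentiation.

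Callus was collected from the fractured right tibia of male wild-type C57BL/6J mice, aged 3 months, at 4 or 7 days post fracture (dpf). Arthritic (RA) mice had been injected intraperitoneally with K/BxN serum, which transfers an antibody-driven arthritis and causes systemic inflammation, on the day of fracture and repeatedly afterwards. Control mice received PBS instead. The question was how systemic inflammation changes the cells of a healing fracture. Each of the 4 conditions (control and RA, at 4 and 7 dpf) was 1 library from pooled calluses, given as 4 calluses in one description of the study and as 3 mice in another. The tissue was scraped along the bone surface and digested with collagenase, with no sort. Where the muscle cells in it came from was not tested. With 1 library per condition there was no test and no replicate check, and a condition cannot be told apart from its library. Ratios and 95% intervals below therefore compare these libraries, and the intervals cover counting error only.

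The 4 dpf control library held 151 muscle stem cells, the 4 dpf RA library 90, the 7 dpf control library 198 and the 7 dpf RA library 254. Their median depth differed by library. It was 24198 UMIs per cell in the 4 dpf control library, 16233 in the 4 dpf RA library, 13302 in the 7 dpf control library and 9522 in the 7 dpf RA library. Over all kept cells the medians were close to one another, from 16094 to 17632 UMIs. The muscle stem cells of the 7 dpf RA library were thus the shallowest, and those of the 4 dpf control library the deepest, while the libraries as a whole were alike. After each cell was thinned to 4000 UMIs the median number of genes per muscle stem cell lay between 1746 and 1821 in the 4 libraries. No muscle stem cell barcode occurred in more than 1 library, although 66 kept barcodes of any type did.

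Some cells lay close to the rule's limits. Of the 903 kept cells with a *Pax7* UMI, 58 had no UMI of the 3 partner genes, 91 had at least 2 *Myog* UMIs and 89 had a *Ptprc* UMI, and some cells failed more than 1 of these. Just inside the rule stood 71 members with exactly 1 *Pax7* UMI, 70 with exactly 1 partner UMI, 11 with 1 *Myog* UMI and 19 with exactly 2 *Mki67* UMIs. Just outside it stood 10 cells with exactly 2 *Myog* UMIs and 30 with exactly 1 *Ptprc* UMI, and 48 members with 1 *Mki67* UMI were counted as not cycling. A further 100 kept cells met the other terms with at least 2 partner UMIs but had no *Pax7* UMI, 9 of them in the 4 dpf control library, 5 in the 4 dpf RA library, 58 in the 7 dpf control library and 28 in the 7 dpf RA library, so this edge was uneven between libraries. *Cdh15* was seen in 595 members, *Fgfr4* in 613 and *Chrdl2* in 41, so *Chrdl2* decided few of them. A further 55 barcodes met the marker rule but exceeded 50000 UMIs, 34 of them in the 4 dpf control library, and 45 of the 55 were cycling.

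**Figure D1:**
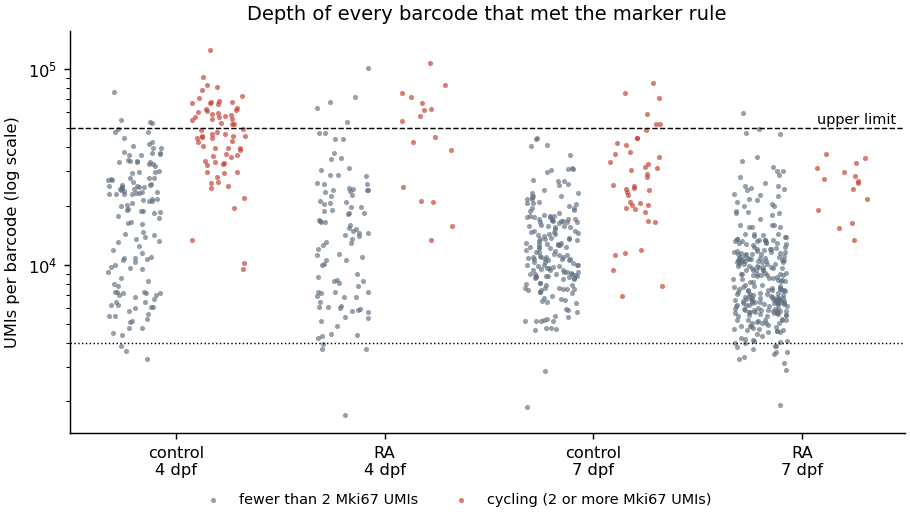
UMIs per barcode (log scale) of every barcode that met the marker rule in each library, with cycling barcodes (at least 2 Mki67 UMIs) in red and the others in grey. The dashed line is the upper limit of 50000 UMIs and the dotted line the lower limit of 4000, and 34 barcodes of the 4 dpf control library and 1 of the 7 dpf RA library lie above the upper line.

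The genes that set the cells apart describe them and are no test of the label. Levels are given as CPM, the UMI count of a gene summed over the muscle stem cells of a library and scaled to 1000000 UMIs of those cells, and log2 ratios add 1 CPM to each side. The 15 genes with the largest ratio of muscle stem cells to the remaining kept cells, ranked by the lowest of the 4 libraries among genes at 50 CPM or more, began with *Pax7* (a lowest log2 ratio of 7.20) and the myogenic factor *Myf5* (6.46), and also held *Fgfr4* (6.18) and *Cdh15* (5.92), which encodes M-cadherin. Others among the 15 were *Ano5* (6.16), *Mybpc1* (6.09), *Pde1c* (5.87), the calcitonin receptor gene *Calcr* (5.75), the acetylcholine receptor subunit gene *Chrna1* (5.58), *Rbm20*, *Tenm4*, *Asb5*, *Col19a1* and *Drp2* (4.90). The genes of the rule lie, in the mm10 build, at chr4:139737062-139833528 on the minus strand (*Pax7*), chr8:122847966-122867397 on the plus strand (*Cdh15*) and chr13:55152640-55168759 on the plus strand (*Fgfr4*).

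Markers of other cell types were present at differing levels. The 4 T cell markers summed to at most 0.338 CPM, with 3 of the 4 at 0 in every library. The 5 macrophage markers summed to between 36.5 and 62.9 CPM in muscle stem cells, against 1991 to 6126 CPM in the remaining cells. The 6 mesenchymal markers, led by *Col3a1*, were not low: they summed to 1388 CPM in the 4 dpf control library, 705 in the 4 dpf RA library, 2325 in the 7 dpf control library and 5867 in the 7 dpf RA library. The 5 endothelial markers, led by *Tek*, summed to 68.5, 97.9, 65.5 and 203 CPM in the same order, and the 4 pericyte markers, led by *Myh11*, to 3.62, 6.08, 63.2 and 137 CPM. Neutrophil markers, led by *S100a8*, were highest in the 4 dpf RA library at 71.7 CPM, and the 3 erythroid markers, led by *Hbb-bs*, were at 201, 668, 1194 and 598 CPM, against 497, 18.7, 478 and 415 CPM in the remaining cells, so they were higher in the muscle stem cells of 3 libraries. Members with at least 3 UMIs of mesenchymal (*Pdgfra*, *Dcn*, *Lum*), endothelial (*Cdh5*, *Kdr*, *Emcn*), pericyte (*Rgs5*, *Kcnj8*, *Myh11*, *Abcc9*) or Schwann cell genes (*Sox10* among them) numbered 7, 2, 17 and 47 in that order of libraries, and Scrublet called 12 of the 693 members doublets. Several results below are also given without those 73 cells.

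The share of muscle stem cells was 2.76% (95% exact binomial interval 2.34 to 3.23) in the 4 dpf control library, 2.19% (1.76 to 2.68) in the 4 dpf RA library, 2.58% (2.24 to 2.96) in the 7 dpf control library and 3.09% (2.73 to 3.49) in the 7 dpf RA library. RA over control gave 0.793 (95% interval 0.604 to 1.04) at 4 dpf and 1.20 (0.991 to 1.45) at 7 dpf, so both intervals included 1. With looser limits (at least 1000 UMIs and 500 genes, at most 15% mitochondrial UMIs, no upper limit) they did not, at 0.737 (0.581 to 0.931) and 1.29 (1.08 to 1.54), and in cells thinned to 4000 UMIs the ratios were 0.992 (0.732 to 1.34) and 1.28 (1.01 to 1.62). Without the 73 cells carrying markers of other types they were 0.813 (0.617 to 1.07) and 1.07 (0.870 to 1.31). Within RA the 7 dpf share was 1.41 times (1.10 to 1.81) that at 4 dpf, and within control 0.934 times (0.752 to 1.16). In cells thinned to 4000 UMIs the RA value was 1.11 (0.844 to 1.46), an interval that included 1, and the control value 0.861 (0.660 to 1.12). The denominator also changed the ratios between times. Among kept cells without a *Ptprc* UMI the share was 7.82%, 6.16%, 4.40% and 4.23% in the same order of libraries, lower at 7 dpf in both conditions. At least 2 *Myog* UMIs occurred together with a *Pax7* UMI in 91 kept cells, with or without *Ptprc*. Cells with at least 2 *Myog* UMIs and no *Ptprc* UMI, called *Myog*-positive and in part holding *Pax7*, were fewer than the muscle stem cells. They numbered 32, 11, 58 and 44, and their share in RA was 0.457 times (0.208 to 0.931) that in control at 4 dpf and 0.708 times (0.467 to 1.07) at 7 dpf.

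Cycling cells made up a smaller part of the muscle stem cells in each RA library than in its control. They were 33 of 151 (21.9%, 15.5 to 29.3) against 8 of 90 (8.89%, 3.92 to 16.8) at 4 dpf, and 34 of 198 (17.2%, 12.2 to 23.2) against 15 of 254 (5.91%, 3.34 to 9.55) at 7 dpf. RA over control gave a ratio of 0.407 (0.162 to 0.898) at 4 dpf and 0.344 (0.174 to 0.649) at 7 dpf. With at least 2 *Top2a* UMIs in place of *Mki67* it was 0.537 (0.209 to 1.23) at 4 dpf, an interval that included 1, and 0.266 (0.134 to 0.498) at 7 dpf. At 4 dpf the other kept cells went the opposite way, with 9.12% cycling in control and 13.2% in RA (ratio 1.44, 1.27 to 1.64). At 7 dpf they went the same way as the muscle stem cells, with 6.65% and 3.53% (0.531, 0.457 to 0.615).

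Depth bears on a count of cells with 2 UMIs, because the RA cells were shallower. With every cell thinned to 4000 UMIs, 5.96% of muscle stem cells in the 4 dpf control library kept 2 *Mki67* UMIs and 3.33% in the 4 dpf RA library, a ratio of 0.559 whose interval (0.0974 to 2.24) spanned 1. At 7 dpf the thinned shares were 9.09% and 1.97%, a ratio of 0.217 (0.0628 to 0.605). The difference was therefore not detectable at a common depth at 4 dpf and remained below 1 at 7 dpf. With looser limits of at least 1000 UMIs, 500 genes and at most 15% mitochondrial UMIs and no upper limit, 69 of 202 (34.2%), 17 of 116 (14.7%), 43 of 222 (19.4%) and 15 of 294 (5.10%) were cycling.

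**Figure D2:**
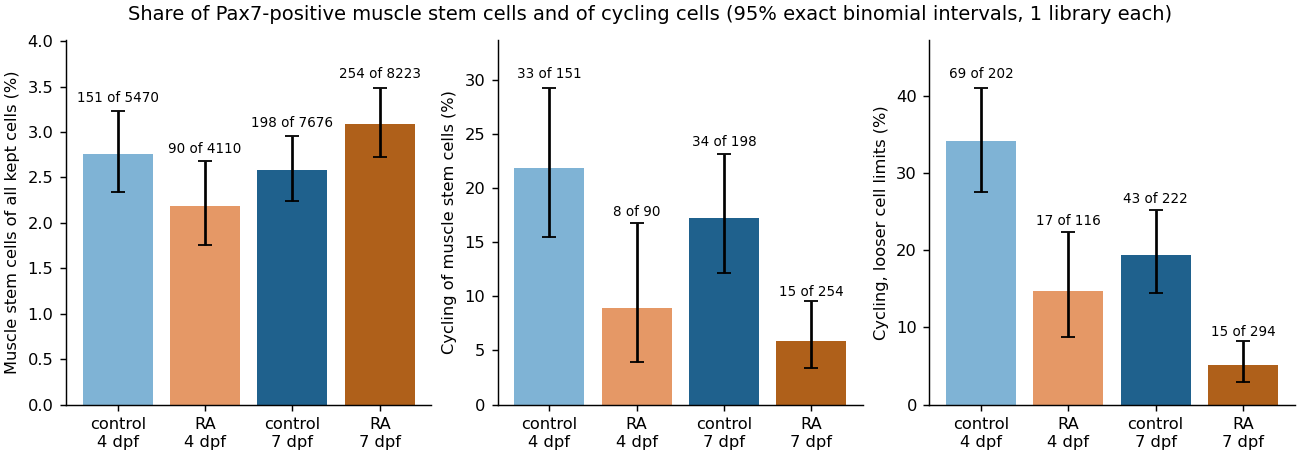
Muscle stem cells as a percentage of all kept cells, cycling cells as a percentage of muscle stem cells, and the latter with looser cell limits, in each of the 4 libraries, with 95% exact binomial intervals. Cycling shares are 21.9% and 17.2% in the control libraries and 8.89% and 5.91% in the RA libraries under the study's limits.

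Cycling cells differed from other muscle stem cells by the cell cycle genes and by a set of genes that were low in them. Of 7697 genes with at least 20 UMIs in each library, 110 (1.43%) were past 2-fold higher in cycling cells in all 4 libraries and 93 (1.21%) past 2-fold lower. *Mki67* chose these cells, so the first group is a description: it was led by *Cenpf* (lowest log2 ratio 4.56), a centromere protein gene, then *Mki67* (4.38), *Cenpe*, *Hmmr*, *Top2a*, *Tpx2*, *Racgap1*, *Ccna2*, *Birc5* and *Bub1b* (3.34). The genes lower in cycling cells in every library included *Calcr*, lower by 2.26 log2 units at least, *Hmcn2* by 2.25, *Apoe* by 2.19, *Gas6* by 2.12, *Bmp6* by 2.11 and *Chodl*, which encodes the lectin chondrolectin, by 2.08. *Hs6st3*, the immediate early gene *Egr1* and *Nr3c2* were also among the 10 furthest from the cycling cells. *Calcr* was at 3.38, 0, 2.47 and 46.9 CPM in the cycling cells of the 4 dpf control, 4 dpf RA, 7 dpf control and 7 dpf RA libraries, and at 113, 115, 110.3 and 228 CPM in the other cells. The 0 comes from the 8 cycling cells of the 4 dpf RA library, and ratios in that library depend on the pseudocount.

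Several of the genes low in cycling cells were also low in the *Myog*-positive cells. Of 8397 genes measured in both, 218 (2.60%) were past 2-fold higher in muscle stem cells in all 4 libraries and 123 (1.46%) past 2-fold lower. The higher genes included *Calcr* (lowest log2 ratio 3.91), *Hs6st3*, *Csmd1*, *Thsd4*, *Tenm4*, *Ror1*, *B3galt1* and *Bmp6* (2.54). *Myog* itself chose the other cells, in which it was higher by 9.57 at least, together with the sarcomere genes *Actc1* (7.74), *Acta1*, *Myh3*, *Tnnt2* and *Tnni1*, the fusion genes *Mymk* and *Mymx*, *Gm28653* and *Casz1* (3.24).

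RA and control muscle stem cells differed past 2-fold in many genes at each time. At 4 dpf 339 of 10934 genes (3.10%) were past 2-fold higher in RA and 559 (5.11%) past 2-fold lower, which became 332 and 308 with the looser cell limits. At 7 dpf 789 of 11611 (6.80%) were higher and 391 (3.37%) lower. Of the 10686 genes measured at both times, 91 (0.852%) were past 2-fold higher in RA at both, which is 28.9% of those higher at 4 dpf and 16.9% of those higher at 7 dpf. A further 100 (0.936%) were lower at both, 19.8% and 30.2% of the lower genes, while 8 were higher at 4 dpf and lower at 7 dpf and 54 the reverse. The median log2 ratio of all genes was 0.01 at both times.

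Other features of the RNA moved with these ratios, and their part in the results was not tested. Genes over 100 kb held 11.3% of the UMIs of muscle stem cells in the 4 dpf control library, 13.7% in the 4 dpf RA library, 12.9% in the 7 dpf control library and 16.0% in the 7 dpf RA library. The nuclear RNA *Malat1* held 0.918%, 1.32%, 1.11% and 1.72%. The genes higher in RA at 7 dpf had a median length of 34.7 kb, those lower 17.3 kb and all genes 26.6 kb. With genes of at most 100 kb alone, 626 genes were higher and 319 lower at 7 dpf, 66.2% higher against 66.9% with all genes. Without the 73 cells that carried markers of other types, 464 genes were past 2-fold higher and 482 lower at 7 dpf, so the excess of higher genes at that time was not seen in the remaining cells.

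**Figure D3:**
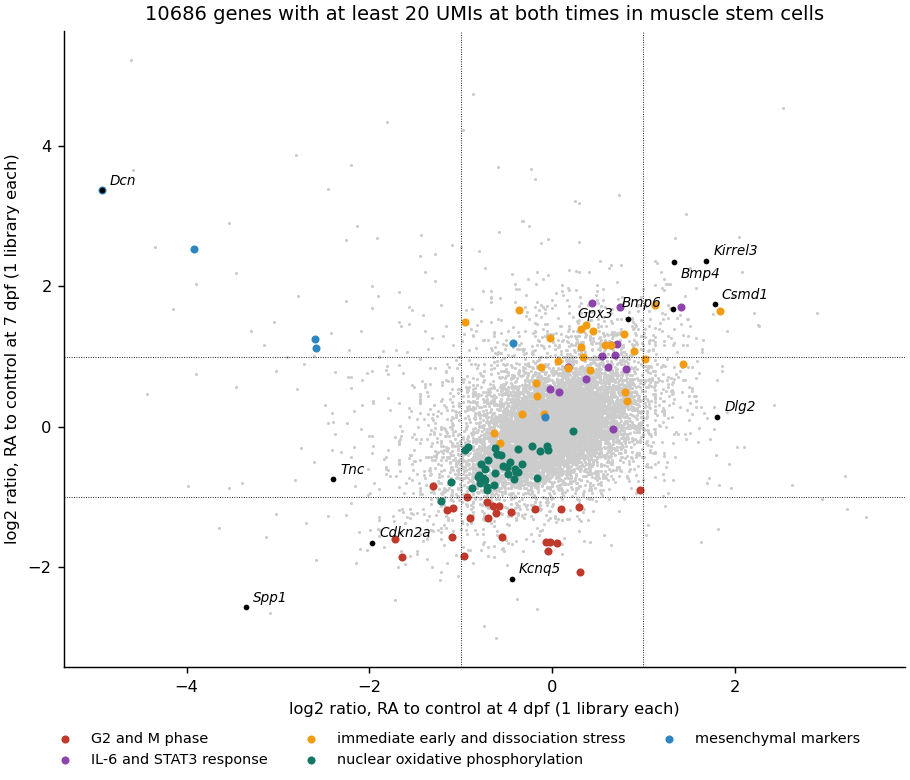
Log2 ratio of RA to control in muscle stem cells at 4 dpf (horizontal) against 7 dpf (vertical) for 10686 genes, each axis from 1 library against 1. Coloured points are members of 5 lists and dotted lines mark 2-fold: G2 and M phase genes and oxidative phosphorylation genes lie below 0 at 7 dpf, whereas the IL-6 and STAT3 list lies mostly to the upper right and the mesenchymal markers to the upper left.

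Of the identity genes, *Pax7*, *Myf5* and *Cdh15* differed less than 2-fold between RA and control. *Pax7* was at 278 CPM in the 4 dpf control library, 448 in the 4 dpf RA library, 288 in the 7 dpf control library and 388 in the 7 dpf RA library, values that describe cells chosen by this gene. *Myf5* was at 219, 223, 207 and 184 CPM in the same order of libraries and *Myod1*, the factor of activated myoblasts, at 46.2, 67.5, 51.2 and 75.0. *Cdh15*, also a gene of the rule, was at 263 and 271 CPM at 4 dpf and 152 and 158 at 7 dpf. *Pax3*, the paralog of *Pax7*, was low but higher in both RA libraries, at 25.3, 60.2, 30.1 and 68.9 CPM. Of the 20 myogenic regulators measured, 2 were past 2-fold higher and 1 lower at 4 dpf, and 1 higher and 1 lower at 7 dpf, with list medians of 0.41 and 0.07. Of all genes 3.10% were higher and 5.11% lower at 4 dpf and 6.80% and 3.37% at 7 dpf. The 7 dpf counts were thus near the background. At 4 dpf the share higher was above it, though this rests on 2 genes.

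Several genes known from resting muscle stem cells were past 2-fold higher in RA at 1 or both times. *Chodl* (chr16:78930948-78951733, plus strand) was at 132 CPM in the 4 dpf control library, 372 in the 4 dpf RA library, 169 in the 7 dpf control library and 489.7 in the 7 dpf RA library, a ratio of 2.83 (2.50 to 3.19) at 4 dpf and 2.91 (2.63 to 3.22) at 7 dpf. Both RA libraries lay above both controls. *Calcr* (chr6:3685680-3764714, minus strand), whose receptor holds satellite cells at rest, was at 77.1, 99.7, 82.0 and 204 CPM, so that the 7 dpf RA library stood apart (ratio 2.49, 2.15 to 2.90) and the 4 dpf ratio was 1.29 (1.06 to 1.57). Among cells that were not cycling the log2 ratio of *Calcr* was 0.02 at 4 dpf and 1.04 at 7 dpf. *Gpx3*, an antioxidant enzyme gene, was at 882, 1569, 459.6 and 1325 CPM, 2.88 times (2.71 to 3.07) higher in RA at 7 dpf. *Tenm4*, a teneurin gene, was at 119, 263, 237 and 483 CPM and *Sdc4*, the heparan sulphate proteoglycan syndecan 4, at 265, 377, 247 and 637. *Vcam1*, an adhesion receptor of satellite cells, was at 219, 372, 275 and 436 CPM, under 2-fold at each time.

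As a group, the quiescence-associated list had 17 of 19 genes above 0 at 4 dpf, 2 of them past 2-fold higher and 1 lower, and a median log2 ratio of 0.51. Among cells that were not cycling none of the 19 was past 2-fold higher at 4 dpf, 1 was lower and the median was 0.32. At 7 dpf 19 of 20 were above 0, 5 past 2-fold and none lower, with a median of 0.45, against 3.10% of all genes called higher at 4 dpf and 6.80% at 7 dpf. In endothelial-marker cells of the same libraries the list's medians were 0.20 and 0.23. Of the 5 at 7 dpf, *Cd34* (12.3, 15.2, 11.3 and 75.4 CPM) and *Rgs5* (1.11, 4.26, 11.0 and 58.5) are also genes of vessel and mesenchymal cells, and the *Cd34* log2 ratio of 2.63 was 1.26 without the cells carrying other markers. The cyclin-dependent kinase inhibitor gene *Cdkn1c* did not keep its direction: it was at 409 and 837 CPM at 4 dpf, 2.04 times (1.90 to 2.20) higher in RA, and at 338 and 229 CPM at 7 dpf, 0.677 times (0.613 to 0.746). The top 10% of cells that were not cycling held 56.3% to 64.8% of its UMIs in the 4 libraries, so these sums rest on few cells. *Cdkn2a*, another inhibitor gene, was low and lower in RA at both times, at 52.9, 12.8, 41.8 and 12.5 CPM.

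*Chodl* was seen in a larger share of cells in each RA library than in its control, and *Calcr* in the 7 dpf RA library. Among muscle stem cells that were not cycling, thinned to 4000 UMIs, 49.2% held a *Chodl* UMI in the 4 dpf control library, 69.5% in the 4 dpf RA library, 45.1% in the 7 dpf control library and 83.7% in the 7 dpf RA library. The background, read in endothelial-marker cells, was at most 0.721%. For *Calcr* the shares were 26.3% (18.6 to 35.2), 31.7% (21.9 to 42.9), 23.8% (17.5 to 31.0) and 44.8% (38.4 to 51.3), so that the 4 dpf libraries overlapped within counting error, against at most 0.431% in endothelial-marker cells. The median depth of the muscle stem cells behind these shares was 20327, 15222, 12230 and 9000 UMIs before thinning. Cells differed among themselves: in the 4 dpf control library 65.9% of *Calcr* UMIs lay in the top 10% of the cells, and in the 7 dpf RA library 47.2%. Of the cells with a *Calcr* UMI, 28 of 31 in the 4 dpf control library, 23 of 26 in the 4 dpf RA library, 24 of 39 in the 7 dpf control library and 94 of 107 in the 7 dpf RA library also had *Chodl*.

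**Figure D4:**
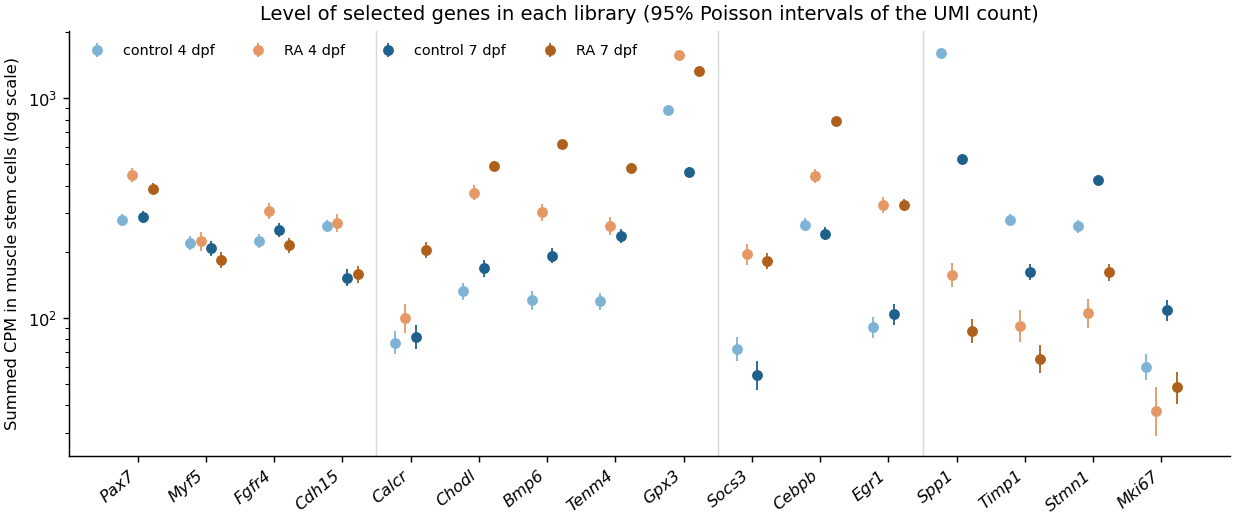
Summed CPM (log scale) of 16 genes in the muscle stem cells of each library, with 95% Poisson intervals of the UMI count, from identity genes on the left through resting-cell and cytokine response genes to genes lower in RA on the right. Chodl, Bmp6, Socs3 and Egr1 lie higher in both RA libraries than in both controls, Spp1 and Timp1 lower.

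The BMP ligand genes *Bmp6* and *Bmp4* were past 2-fold higher in RA at both times. *Bmp6* (chr13:38345107-38500302, plus strand) was at 120.3 CPM in the 4 dpf control library, 302 in the 4 dpf RA library, 192 in the 7 dpf control library and 619 in the 7 dpf RA library. It was 2.51 times (2.20 to 2.86) higher in RA at 4 dpf and 3.22 times (2.94 to 3.54) at 7 dpf. *Bmp4* (chr14:46383520-46390669, minus strand) was at 34.8, 88.8, 31.8 and 166 CPM, with ratios of 2.55 (2.00 to 3.27) and 5.22 (4.20 to 6.56). In endothelial-marker cells of the same libraries the log2 ratio was -0.29 and 1.07 for *Bmp4* and 0.10 and -0.21 for *Bmp6*. *Bmp6* was seen in 38.1%, 54.9%, 43.9% and 76.6% of thinned cells that were not cycling, against 7.96% to 9.70% of endothelial-marker cells.

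*Tgfbr3*, the co-receptor betaglycan, was at 144, 289, 206 and 464 CPM, and *Ltbp1*, which binds latent TGF-beta, at 117, 219, 117 and 326. *Id3*, a transcriptional target of BMP signals, was at 379, 643, 338 and 627 CPM, 1.69 times (1.56 to 1.84) and 1.86 times (1.72 to 2.01) higher in RA. The *Id3* ratio in endothelial-marker cells was near 0 on the log2 scale (-0.01 and 0.07). Over the TGF-beta, BMP and myostatin list, 3 of 20 genes were past 2-fold higher and none lower at 4 dpf (median 0.44), and 5 of 24 higher and 1 lower at 7 dpf (median 0.57), where 3.10% and 6.80% of all genes were higher. In cells that were not cycling the 4 dpf list had 2 higher and a median of 0.28.

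Of the genes that respond to IL-6 family cytokines, *Socs3* was past 2-fold higher in RA at both times and others at 7 dpf. *Socs3*, the feedback inhibitor of STAT3 signalling, was at 72.4 CPM in the 4 dpf control library, 195 in the 4 dpf RA library, 54.8 in the 7 dpf control library and 181 in the 7 dpf RA library. *Socs3* was 2.69 times (2.27 to 3.18) higher in RA at 4 dpf and 3.31 times (2.78 to 3.95) at 7 dpf, whereas in endothelial-marker cells the log2 ratios were 0.14 and 0.40. *Cebpb*, a transcription factor gene induced by these cytokines, was at 266, 444, 242 and 789 CPM and *Cebpd* at 61.5, 83.9, 45.1 and 155. *Stat3* itself was at 197, 302, 219.8 and 397 CPM, under 2-fold. The receptor genes *Il6st* (69.3, 78.4, 67.4 and 122 CPM) and *Osmr* (38.1, 62.0, 32.7 and 67.6) were both highest in the 7 dpf RA library. Transcripts of *Il6* were scarce, at most 8.79 CPM.

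Over the IL-6 and STAT3 list, 13 of 14 genes were above 0 at 4 dpf, 1 past 2-fold higher, with a median log2 ratio of 0.63, and 14 of 15 at 7 dpf, 8 past 2-fold, with a median of 1.01. No gene of the list was past 2-fold lower. Of all genes 3.10% were past 2-fold higher at 4 dpf and 6.80% at 7 dpf. The medians in endothelial-marker cells were 0.15 and 0.39 and in immune cells 0.02 and 0.38. Restricted to muscle stem cells that were not cycling, the medians were 0.45 and 0.77.

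The promoter of *Socs3* holds a STAT-type element, shown here because *Socs3* was the gene of the list furthest from control at 4 dpf. The 30 bases lie at chr11:117969501-117969530 on the minus strand in GRCm38.p6 (RefSeq), the element beginning 154 bases before the start site, and capitals mark TTCNNNGAA, a palindromic pattern that reads the same on both strands.
*Socs3* promoter: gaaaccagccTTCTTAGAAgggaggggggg
The pattern was found in 8.30% of the 32851 RefSeq promoter windows of 300 bases, and in 2 of the 14 list genes with a window, *Fgl2* and *Socs3*. A match is a description of the letters and not evidence of binding.

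Immediate early genes respond to many stimuli, tissue digestion among them. *Egr1* was at 90.5 CPM in the 4 dpf control library, 327 in the 4 dpf RA library, 104 in the 7 dpf control library and 328 in the 7 dpf RA library, 3.61 times (3.14 to 4.15) and 3.16 times (2.79 to 3.60) higher. The AP-1 genes *Fos* (295, 442, 210.0 and 475 CPM) and *Fosb* (240.3, 299.8, 200.0 and 527) were highest in the 7 dpf RA library. Over the 28 genes of the list 4 were past 2-fold higher at 4 dpf (median 0.33) and 13 at 7 dpf (median 0.98), none lower, against 3.10% and 6.80% of all genes higher. In cells that were not cycling 3 were higher and 1 lower at 4 dpf (median 0.13), and 14 higher at 7 dpf (median 1.05). In endothelial-marker cells none of the 28 was past 2-fold at either time, with medians of -0.04 and 0.18. *Junb* (265, 416, 235 and 529.9 CPM) stands in this list and in the IL-6 and STAT3 list.

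Part of the cell cycle genes were past 2-fold lower in RA. Of 25 S phase genes 10 were past 2-fold lower at 4 dpf (median -0.89) and 13 at 7 dpf (median -1.03), and of 25 G2 and M phase genes 6 at 4 dpf (median -0.61) and 23 at 7 dpf (median -1.23), against 5.11% and 3.37% of all genes. None was past 2-fold higher. *Stmn1*, a microtubule regulator of dividing cells, was at 261, 105, 423 and 161 CPM, and *Hist1h1b*, a linker histone gene of S phase, at 134, 49.9, 239.9 and 77.0. In cells below the *Mki67* threshold the S phase medians were still -0.43 and -1.00. Immune cells of the same libraries had S phase medians of 0.32 at 4 dpf and -0.25 at 7 dpf, and endothelial-marker cells -0.20 and -0.66. The G2 and M phase list was also lower in RA at 7 dpf in other cells, and higher at 4 dpf. Its summed level in *Myog*-positive cells was 969 CPM in control and 1331 in RA at 4 dpf, and 962 and 275 at 7 dpf. In the remaining kept cells it was 465 and 615 CPM at 4 dpf, and 384 and 209 at 7 dpf.

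Among genes at 100 CPM or more in the higher library and below control at both times, the lowest in RA was *Spp1* (chr5:104435118-104441050, plus strand), which encodes the secreted matrix protein osteopontin. It was at 1607 CPM in the 4 dpf control library, 157 in the 4 dpf RA library, 529 in the 7 dpf control library and 87.5 in the 7 dpf RA library, 0.0976 times (0.0858 to 0.111) and 0.166 times (0.145 to 0.189) control. As a share of thinned cells that were not cycling it was in 56.8%, 20.7%, 27.4% and 5.86%, against 19.7%, 4.74%, 8.29% and 5.84% of endothelial-marker cells. The share in the 7 dpf RA library was thus at background. *Spp1* was also lower in immune cells of the RA libraries, with log2 ratios of -2.01 and -0.94, and in endothelial-marker cells with -0.59 and -0.80. Cells with both *Spp1* and *Calcr* numbered 9 of 118 in the 4 dpf control library, 4 of 82 in the 4 dpf RA library, 7 of 164 in the 7 dpf control library and 5 of 239 in the 7 dpf RA library.

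Other genes were named for the largest differences below control at 4 or 7 dpf. *Timp1*, a metalloproteinase inhibitor gene, was at 278 CPM in the 4 dpf control library, 91.8 in the 4 dpf RA library, 161 in the 7 dpf control library and 65.2 in the 7 dpf RA library. *Tmsb4x*, which encodes an actin-binding peptide, was at 5568, 1990, 4179 and 2606 CPM, and the nestin gene *Nes*, an intermediate filament gene, at 145, 76.0, 123 and 35.5. *Mif* (511, 185, 341 and 194 CPM) and *Nme1* (334, 124, 278 and 143), like *Tmsb4x*, were lowest in the 4 dpf RA library. *Tnc* was at 101, 18.2, 134 and 79.1 CPM, *Basp1* at 109, 28.6, 84.6 and 32.8, and *Ppa1* at 111, 37.1, 95.6 and 41.6. All 8 lay below control at both times because the naming rule asked for it, and *Tmsb4x*, *Mif*, *Nme1* and *Tnc* were not past 2-fold at 7 dpf and *Nes* was not at 4 dpf. *Kcnq5*, a potassium channel gene, was high only in the 7 dpf control library, at 134 CPM against 43.2, 31.6 and 29.1 in the others.

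Part of the muscle differentiation list was past 2-fold lower in RA. Of 18 measured at 4 dpf 10 were past 2-fold lower (median -1.08), and of 17 at 7 dpf 5 were lower and 1, *Myh3*, higher (median -0.53), against 5.11% of all genes lower at 4 dpf, and 3.37% lower and 6.80% higher at 7 dpf. In cells that were not cycling 5 of 15 were lower at 4 dpf (median -0.61), and 2 of 14 lower and 1 higher at 7 dpf (median -0.46). *Myh3* stood at 8.79 CPM in the 7 dpf RA library, and its log2 ratio of 1.90 was -1.51 without the cells carrying other markers. *Mylpf*, a fast myosin light chain gene, was at 131 CPM in the 4 dpf control library and at 15.2, 9.40 and 3.38 CPM in the 4 dpf RA, 7 dpf control and 7 dpf RA libraries. *Tnnt2*, a troponin gene, was at 49.6, 3.04, 23.7 and 8.11 CPM and *Des*, the desmin gene, at 667, 425, 481 and 319. The 5 markers of mature fibres, led by *Mylpf*, summed to 199 CPM in the 4 dpf control library and to 40.7, 21.1 and 14.5 in the others, highest in that library.

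Few genes of oxidative phosphorylation were past 2-fold. Of 37 nuclear genes of oxidative phosphorylation 36 lay below 0 at 4 dpf and 37 at 7 dpf, with a median of -0.60 at both times, and 2 and 1 of them were past 2-fold lower, against 5.11% and 3.37% of all genes. *Cox5a*, a subunit of complex IV, was at 480.3, 259.6, 419 and 229 CPM and *Cycs*, the cytochrome c gene, at 277, 119, 242 and 115. In endothelial-marker cells the medians were -0.20 and -0.29, and in immune cells -0.02 and -0.31. The glycolysis list had 1 gene higher and 4 lower of 19 at 4 dpf (median -0.51) and 2 lower of 20 at 7 dpf (median -0.34, with 7 above 0), and *Pgk1* was at 325, 215, 209 and 114 CPM. The cholesterol synthesis list had 5 of 18 genes past 2-fold lower at 4 dpf (median -0.64) and 1 of 19 past 2-fold higher at 7 dpf (median -0.10), against 5.11% of all genes lower at 4 dpf and 6.80% higher at 7 dpf.

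The Notch pathway, which restrains muscle stem cells, showed no gene past 2-fold at either time among 23 and 24 measured, with medians of 0.18 and 0.12 (0.37 and 0.22 without the cells carrying other markers, where 1 of 23 was higher at 7 dpf). Since 3.10% of all genes were higher and 5.11% lower at 4 dpf, and 6.80% and 3.37% at 7 dpf, few would be past 2-fold at the background share. *Notch3* was at 191, 290.0, 199 and 273 CPM, 1.52 times (1.35 to 1.71) and 1.37 times (1.23 to 1.52) higher in RA. The effector gene *Heyl* was at 149.8, 217, 148 and 155 CPM and *Hes1* at 83.2, 128, 108 and 119, so that neither differed at 7 dpf beyond counting error (1.04, 0.916 to 1.19, and 1.10, 0.946 to 1.28). *Rbpj*, the transcription factor of the pathway, was at 85.5, 108, 100.2 and 118 CPM. Transcripts of the ligand *Dll1* were at 14.5 to 20.1 CPM.

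Inflammatory lists depended on which cells were counted. The NF-kB and chemokine list had 4 genes past 2-fold higher and 2 lower of 19 at 4 dpf (median 0.23) and 9 higher and 1 lower of 23 at 7 dpf (median 0.79). Of all genes 3.10% were higher and 5.11% lower at 4 dpf, and 6.80% and 3.37% at 7 dpf. The 7 dpf counts became 3 higher and 1 lower of 19 with a median of 0.42 without the cells carrying other markers. In cells that were not cycling the 4 dpf list had 4 higher and 4 lower and a median of -0.04. *Ccl11*, an eosinophil chemokine gene, was at 3.34, 17.0, 3.89 and 31.1 CPM, and the inhibitor *Nfkbia*, a direct NF-kB target, at 292, 301, 322 and 458. *Il1b* and *Tnf* were at or below 0.676 CPM in every library. The interferon and class I list had medians of 0.18 and 0.50 (0.38 and 0.25 without the cells carrying other markers, and -0.02 at 4 dpf in cells that were not cycling), and *Iigp1*, an interferon-induced GTPase gene, was at 15.6, 27.4, 23.0 and 85.8 CPM.

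Matrix genes lay in opposite directions at the 2 times, a difference that was not tested. Of 30 genes, 8 were past 2-fold lower in RA at 4 dpf (median -0.50), and 8 higher and 1 lower at 7 dpf (median 0.48), against 5.11% of all genes lower at 4 dpf, and 6.80% higher and 3.37% lower at 7 dpf. Without the cells carrying other markers 1 was higher and 6 lower at 4 dpf (median -0.34), and none higher and 6 lower at 7 dpf (median -0.02). *Dcn*, the decorin gene of fibroblasts and one of the genes that chose those cells, was at 176, 4.86, 72.0 and 753 CPM, and in the 4 dpf control library 97.7% of its UMIs lay in the top 10% of cells that were not cycling, 470 of them in a single cell. The basement membrane genes *Col4a1* (157, 272, 289 and 553 CPM) and *Lama2* (501, 852, 784 and 868) did not share that pattern.

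A few lists differed at 1 time only by these counts, and the difference between times was not tested. Imprinted growth genes had 4 of 14 past 2-fold higher in RA at 4 dpf (median 0.55) and 1 of 16 at 7 dpf (median 0.12), which became 3 and none in cells that were not cycling (medians 0.43 and 0.03). Of all genes 3.10% were higher at 4 dpf and 6.80% at 7 dpf, so the 7 dpf count was at the background. *Igf2*, a growth factor of the embryo and of regenerating muscle, was at 93.0 CPM in the 4 dpf control library and at 256, 216 and 201 in the other libraries, and *Plagl1*, a regulator of imprinted genes, at 111, 269, 194 and 212. In both, the 4 dpf control library was the low one. *Csf1* was at 12.5, 39.5, 18.8 and 25.7 CPM. Other genes were named for the largest differences above control at 4 or 7 dpf. *Csmd1*, which spans 1643 kb, was at 177, 611, 98.2 and 333 CPM, *Ror1* at 185, 579, 269 and 561, *Kirrel3* at 22.6, 74.8, 44.4 and 234, and *Dlg2*, which spans 1973 kb, at 108, 380.0, 168 and 185, past 2-fold at 4 dpf alone.

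The remaining genes named for being higher in RA included shorter ones with known secreted or signalling products. *Rarres2*, the chemerin gene, was at 24.2 CPM in the 4 dpf control library, 59.0 in the 4 dpf RA library, 29.2 in the 7 dpf control library and 123 in the 7 dpf RA library. *Gas6*, which encodes a ligand of the TAM receptors, was at 50.4, 70.5, 52.8 and 197 CPM. *Plpp3*, a lipid phosphatase gene, was at 67.7, 159, 63.2 and 247 CPM, *Nav2* at 43.4, 106, 35.3 and 148, and *Klhl29* at 61.3, 117, 44.4 and 157. *Txnip*, an inhibitor of glucose uptake and thioredoxin, was at 146, 361, 233 and 376 CPM and the lysophosphatidic acid receptor gene *Lpar4* at 41.8, 120.4, 73.9 and 93.3. Each RA library exceeded its own control in these genes, which the naming rule asked for.

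**Figure D5:**
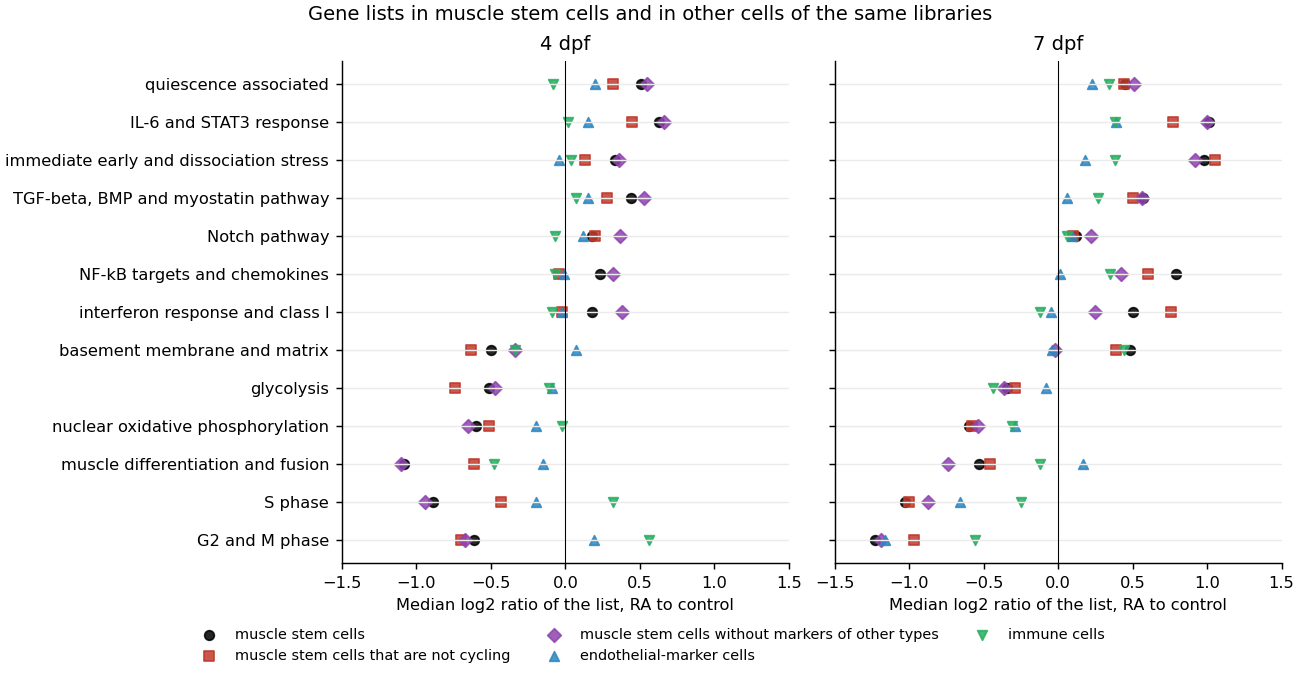
RA over control as the median log2 ratio in each of 13 gene lists at 4 dpf and 7 dpf, in muscle stem cells (black), in those not cycling (red), in those without markers of other types (purple), and in endothelial-marker (blue) and immune cells (green) of the same libraries. The IL-6 and STAT3 list has medians of 0.63 and 1.01 in muscle stem cells against 0.15 and 0.39 in endothelial-marker cells, and the S phase list -0.89 and -1.03 against -0.20 and -0.66.

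Between 4 and 7 dpf, compared in the same 4 libraries, control muscle stem cells differed in fewer genes than RA ones. In control 342 of 11579 genes (2.95%) were past 2-fold higher at 7 dpf and 223 (1.93%) lower. In RA 922 of 10950 (8.42%) were higher and 243 (2.22%) lower. Without the cells carrying markers of other types the counts became 314 and 258 in control, and 427 and 321 in RA. The difference between control and RA in these counts was not tested. Of the muscle differentiation genes 12 of 18 were past 2-fold lower at 7 dpf in control (median -1.37), and 6 of 15 lower and 2 higher in RA (median -0.57), with *Tnnt1*, a slow troponin gene, at 249 CPM in the 4 dpf control library, 112 in the 4 dpf RA library, 44.1 in the 7 dpf control library and 34.8 in the 7 dpf RA library. *Meg3*, a long noncoding RNA of an imprinted cluster, was higher at 7 dpf in both, at 46.2, 55.3, 208 and 283 CPM in that order. *Mest*, another imprinted gene, was lower at 7 dpf, at 975, 823, 533 and 307 CPM. *Lgr5*, a receptor of activated satellite cells, was lower at 7 dpf too, at 34.5, 17.6, 11.3 and 3.72 CPM. Of the G2 and M phase genes 8 of 25 were past 2-fold higher at 7 dpf in control (median 0.85) and none of 24 in RA, where 2 were lower (median 0.11), and this difference between control and RA was not tested.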

How the data were processed

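The authors sequenced 10x Genomics libraries and, per the submitters' processing notes, used Cell Ranger 7.0.1 with mm10. The deposited matrices hold raw UMI counts of 32285 genes per barcode, and whether intronic reads were counted was not given in the sources used here. The cell limits were those of the study's methods, and members were chosen by the counts given in the text. UMI counts were summed per library and converted to CPM. Log2 ratios used a pseudocount of 1 CPM, for genes whose UMIs in the pair of libraries came to 20 or more, and a gene was called past 2-fold. Intervals were exact (Clopper-Pearson, Poisson, conditional binomial) at 95%. Shares of cells with a UMI were read after thinning each cell to 4000 UMIs. Doublets (Scrublet) were left out only as an alternative.

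The members and the gene lists, drawn from general knowledge, were chosen with earlier results of these data known. Genes were named if they were in the rule or a list, among the 15 largest ratios of members to remaining cells (at least 50 CPM in every library), the 10 largest each way between cycling and other cells and against *Myog*-positive cells, or the 10 largest each way between RA and control (with 100 CPM or more in whichever library was higher, and no change of sign at the other time). *Malat1* was named after its values were seen, as were the list genes given as examples outside these ranks, such as *Il6* and *Dcn*. Some genes that the rule names are not reported here. The calculations were tested on simulated data. Python 3.11.15, numpy 2.4.6, scipy 1.17.1, pandas 2.3.3, scanpy 1.11.5 and matplotlib 3.10.9 were used.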

Additional observations from a re-analysis of the deposited data

Results flagged for a closer look

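The share of muscle stem cells lay in opposite directions at the 2 times, with a ratio of RA to control of 0.793 at 4 dpf and 1.20 at 7 dpf. This difference was not tested. Both intervals included 1 with the study's limits, and neither did with looser limits (0.581 to 0.931 at 4 dpf and 1.08 to 1.54 at 7 dpf). The directions depended on the denominator: both ratios were below 1 among cells without *Ptprc* (0.788 and 0.961) and above 1 among stem and *Myog*-positive cells (1.08 and 1.10).

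Genes of matrix and blood cells also lay in opposite directions, and these differences were not tested. On the log2 scale RA over control was -3.15 at 4 dpf and 1.16 at 7 dpf for *Fn1*, the fibronectin gene, -2.59 and 1.25 for the collagen gene *Col1a1*, -4.92 and 3.37 for *Dcn*, and -3.92 and 2.54 for *Lum*, the lumican gene. For *Hba-a1*, a globin gene of red blood cells, it was 2.95 and -1.03. Members with at least 3 UMIs of mesenchymal genes numbered 6 in the 4 dpf control library and 0 in the 4 dpf RA library. They numbered 14 in the 7 dpf control library and 38 in the 7 dpf RA library. Without the cells carrying markers of other types, which *Dcn* and *Lum* helped to choose, the *Dcn* values were -1.07 and 1.47. Without the same cells the matrix list had no gene past 2-fold higher in RA at 7 dpf, as given above.

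Barcodes that met the marker rule but exceeded 50000 UMIs entered no comparison under the study's limits, whereas the looser limits had no upper limit. Such barcodes numbered 34 in the 4 dpf control library, 14 in the 4 dpf RA library and 6 in the 7 dpf control library, against 1 in the 7 dpf RA library.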

How the results depend on the processing

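With 1 library per condition no replicate could be left out. No paired analysis was run, and each condition was 1 library. Over 838 log2 ratios of 39 named genes under the alternatives none changed sign while past 2-fold, 785 stayed on their side of 2-fold, 36 fell below it and 17 passed it. The ratio of shares moved to 1.08 at 4 dpf with stem and *Myog*-positive cells as the denominator, and to 0.961 at 7 dpf among cells without *Ptprc*. The cycling share moved to 34.2% with looser limits in the 4 dpf control library. Thinning gave 5.96%, 3.33%, 9.09% and 1.97% (4 dpf control, 4 dpf RA, 7 dpf control, 7 dpf RA), and a threshold of 1 *Mki67* UMI gave 33.1% and 25.8% in the control libraries and 9.84% in the 7 dpf RA library. The number of genes past 2-fold between RA and control was 898 at 4 dpf and 1180 at 7 dpf. It became 220 and 400 with a pseudocount of 10 CPM, 297 and 512 with at least 100 UMIs, 2101 and 2138 with no filter, and 471 and 726 in thinned cells that were not cycling. Between times in control the number was 565, and 111, 151 and 1240 under the first 3 of these. Between times in RA it was 1165, and 444, 381 and 2852, then 679 when thinned and 748 without the cells carrying other markers. The percentage of called genes that were higher in RA at 7 dpf was 66.9% and became 49.0% without those cells, 80.8% with the larger pseudocount and 56.5% with looser limits; at 4 dpf it was 37.8% and became 51.9% with looser limits. Between times in RA 79.1% became 57.1% without those cells, 64.0% with looser limits and 68.4% with the mean CPM over cells. The alternatives without other-marker cells, by gene length and with gene counts in thinned cells that were not cycling were chosen after seeing the data. Thinning for the shares of cells was planned. Precision was limited by the 90 cells of the 4 dpf RA library, where 3 UMIs correspond to 1.82 CPM.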
